A study of Mus musculus with 16 samples.

Results

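Members of the mouse Ly6 family were followed by name in the deposited tables of transcript abundance, namely Ly6a, Ly6c1, Ly6c2, Ly6d, Ly6e and Ly6g. They are 6 of the 22396 gene symbols in the tables and hold 21 of the 28988 listed transcripts, and 5 of those 21 belong to Ly6a. The values are TPM (a level relative to all transcripts of a library and corrected for transcript length), summed here over the listed transcripts of a gene in each mouse.

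Ly6 genes encode small cysteine-rich proteins that are mostly held on the cell surface by a GPI lipid anchor, and many serve as antigens by which blood cell types are sorted. Ly6a encodes Sca-1, an antigen of blood stem cells that is also known as a mark of regenerating, fetal-like colonic epithelium after injury. Ly6c1 and Ly6c2 encode forms of Ly-6C, known from monocytes, plasma cells and endothelium, and Ly6g encodes the antigen by which neutrophils are identified. Ly6d is known from early B-lineage cells and from stratified epithelium, and Ly6e is a broadly expressed, interferon-inducible member.

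The libraries came from EpCAM+ cells sorted from the digested mucosa of the distal colon of 16 mice. In the study's description, those after DSS came from injured regions, which were cut away from unaffected colon beforehand. All of the mice carried floxed Tnfr2 alleles, written Tnfr2-f/f in the labels. The controls carried nothing more, and the mice labelled Vil1::Cre;Tnfr2-f/f, called Tnfr2ko below, also carried a Cre recombinase driven by the Vil1 promoter, which is active in intestinal epithelium, so other cells kept the receptor. Per the labels, mice drank water or 3% dextran sulfate sodium (DSS), which injures the colonic epithelium, for 6 days and were dissected on day 12. The study's text gives another DSS concentration and an earlier day for the uninjured mice, so what the water group received and when it was taken rest on the labels alone. Water was given to 4 control and 5 Tnfr2ko mice, and DSS to 3 control and 4 Tnfr2ko mice, adult animals aged 8 weeks in the study's description of the model. Each treatment filled cages of its own. Cage a held 4 male and cage b 5 female water-treated mice, and cage c held 2 and cage d 5 female DSS-treated mice. Treatment, cage and the choice of injured tissue therefore cannot be told apart. All DSS-treated mice were female while the water-treated mice were of both sexes, so sex also differed in part between treatments. The labels do not say that the mice of a group were independent beyond being separate animals.

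In the GRCm38 build, the 6 genes lie on chromosome 15 within one stretch, in the order Ly6d (74762056 to 74763620, minus strand), Ly6e (74955051 to 74959905, plus strand), Ly6a (74994877 to 74998031, minus strand), Ly6c1 (75044018 to 75048830, minus strand), Ly6c2 (75108158 to 75111970, minus strand) and Ly6g (75155240 to 75159126, plus strand). Each gene has a single coding sequence over its listed transcripts, so the listed transcripts of a gene differ in their untranslated ends. Closeness in sequence limits how reads can be divided among these genes. The coding sequences of Ly6c1 and Ly6c2, 393 bases each, differed at 9 bases (97.7% identical) and shared 218 windows of 31 bases, the window length used here. Ly6a was 83.1% identical to Ly6g and 81.8% to Ly6c1 over the aligned coding bases, but 53.5% to Ly6e and 49.9% to Ly6d. Bases 1 to 260 of the coding sequences, counted from the start codon and read from GENCODE M21, are shown to make this closeness visible. That of Ly6a is common to its 5 listed transcripts, and in Ly6c1 and Ly6c2 the capitals mark the bases that differ between both genes, 7 of the 9 in this stretch.
Ly6a: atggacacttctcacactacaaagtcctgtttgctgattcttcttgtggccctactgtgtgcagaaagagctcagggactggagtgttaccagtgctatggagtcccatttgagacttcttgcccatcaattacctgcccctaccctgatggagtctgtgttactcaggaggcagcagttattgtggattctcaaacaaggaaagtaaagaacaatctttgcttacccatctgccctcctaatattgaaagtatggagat
Ly6c1: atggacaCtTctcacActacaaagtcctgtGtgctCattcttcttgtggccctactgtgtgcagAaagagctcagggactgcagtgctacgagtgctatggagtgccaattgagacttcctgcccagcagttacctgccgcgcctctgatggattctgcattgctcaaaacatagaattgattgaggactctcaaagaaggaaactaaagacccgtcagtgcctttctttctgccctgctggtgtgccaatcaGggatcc
Ly6c2: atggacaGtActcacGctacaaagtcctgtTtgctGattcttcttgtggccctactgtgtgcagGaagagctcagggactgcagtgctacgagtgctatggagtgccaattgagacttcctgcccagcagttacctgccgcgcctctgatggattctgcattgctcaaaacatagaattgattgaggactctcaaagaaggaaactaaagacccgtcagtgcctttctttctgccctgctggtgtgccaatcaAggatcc

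Of the 31-base windows of the listed transcripts, 35.4% to 42.9% in Ly6c1 and 34.5% to 46.2% in Ly6c2 occurred in no other gene. The share was 71.9% to 77.9% in Ly6a, 90.5% in Ly6g, 97.6% to 99.3% in Ly6e and 100% in Ly6d. Levels of Ly6c1 and Ly6c2 are therefore the least certain of the 6, since the authors' program divides shared reads between the genes by estimate.

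Tnfrsf1b, which encodes TNFR2 and is the targeted gene, was not lower in the mice labelled Tnfr2ko than the spread between mice. It stood at 16.5 ± 4.95 TPM (SD, n = 3) in control and 18.4 ± 6.02 TPM (n = 4) in Tnfr2ko mice after DSS, and at 13.9 ± 2.06 (n = 4) and 11.8 ± 2.30 TPM (n = 5) after water. The exact two-sided permutation p was 0.629 after DSS and 0.198 after water. The study itself reported less TNFR2 protein on EpCAM+ cells of such mice by flow cytometry, and a similar result by RT-qPCR. Its methods place the floxed part at exon 2. Whether the deleted part of the gene lies in the listed transcript was not tested, nor whether its loss would lower the summed TPM, so genotypes are given as labelled. Epithelial markers summed to 4730 to 7809 TPM in every group. Markers of some other cell types stood apart by treatment. None of 9 endothelial and 8 fibroblast genes at 1 TPM or more separated the treatments as deposited or after rescaling. Of all genes, 22.5% did so as deposited and 11.4% after rescaling. All 11 monocyte and macrophage markers were lower in the 7 DSS-treated than in the 9 water-treated mice without overlap, with sums of 19.9 to 64.3 against 1167 to 2578 TPM, beside 4.18% of all genes lower in that way as deposited and 6.94% after rescaling. The 7 plasma cell markers summed to 89.7 to 552 against 570 to 14421 TPM. One of them, Sdc1, stood at 72.7 to 110 TPM (median 90.6) after DSS and 90.9 to 137 TPM after water. Another, Jchain, had medians of 48.9 and 5290 TPM. Of the 6 at 1 TPM or more, 2 were lower without overlap as deposited and 3 after rescaling. The 11 neutrophil markers summed to 53.8 to 1942 TPM after DSS and 12.8 to 41.9 TPM after water. Of the 7 that reached 1 TPM, S100a8 (19.2 to 904 against 0 to 6.31 TPM) and S100a9 were higher without overlap and 5 overlapped. Among those 5, medians were lower after DSS for Csf3r (1.96 against 2.48 TPM) and Mmp9 (1.05 against 7.56 TPM). They were higher for Cxcr2 (1.57 against 0.255 TPM), Retnlg (13.3 against 8.49 TPM) and Ltf (1.74 against 0 TPM). Camp and Elane were listed at 0 in every mouse. In bulk samples, fewer cells of a type and less RNA per cell cannot be told apart.

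The tables of the 2 treatments were normalized separately, so levels after DSS and after water are set side by side without a test. Over 11786 genes, the median difference was 0.28 on the log2 scale toward DSS as deposited and -0.00823 once all 16 mice were rescaled together by median-of-ratios factors. None of the 6 genes separated the DSS-treated from the water-treated mice without overlap on either scale, where 22.5% of genes did so as deposited and 11.4% after rescaling.

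**Figure D1:**
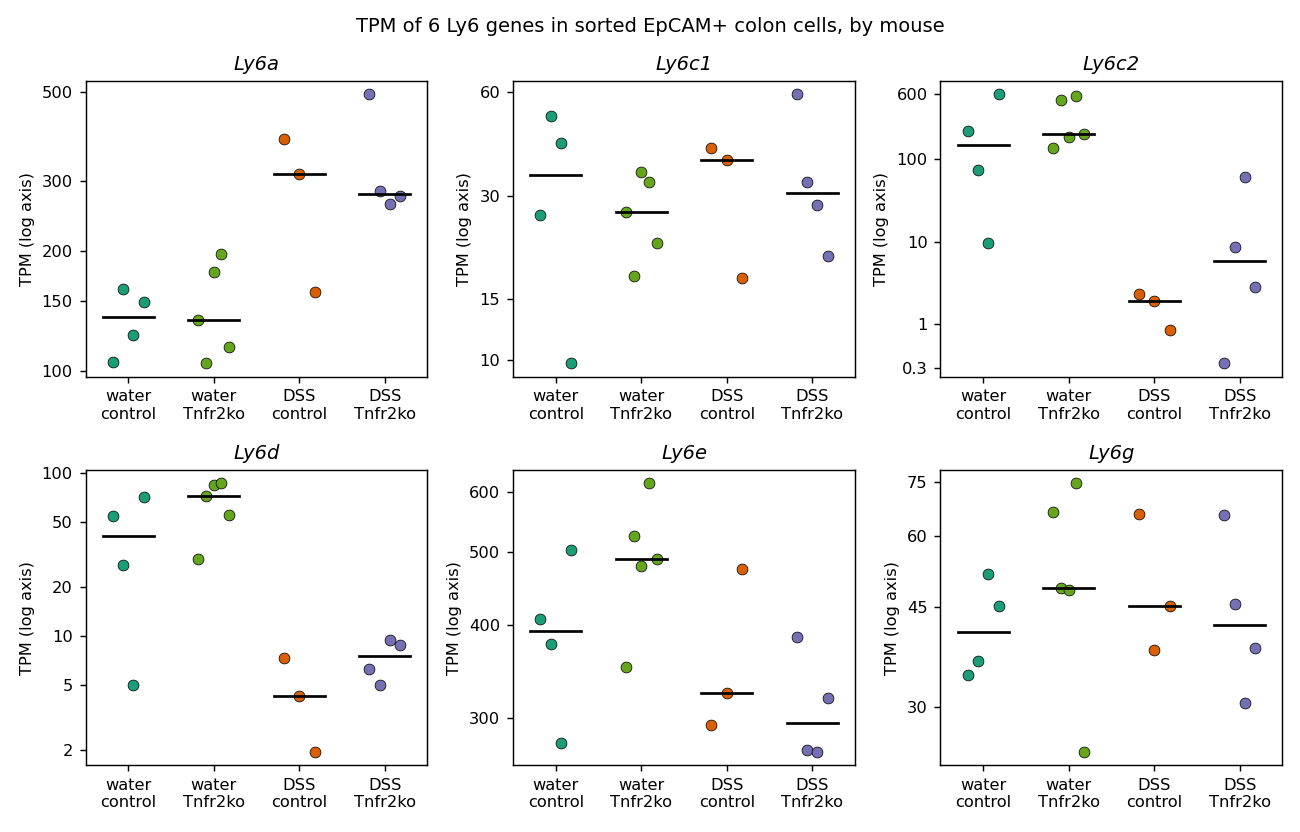
TPM of the 6 Ly6 genes in each mouse (vertical log axes, TPM) in the 4 groups along the horizontal axis, a point for each mouse and a line for the median of the group. Ly6a sat higher in 6 of 7 DSS-treated mice than in every water-treated mouse, and Ly6c2 sat lower in 6 of 7 DSS-treated mice than in every water-treated mouse.

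Ly6a, the regeneration-associated antigen Sca-1, was about 2.11 times as high at the median of the DSS-treated mice as at the median of the water-treated mice (282 against 134 TPM). After DSS, the 3 control mice stood at 381, 312 and 158 TPM and the 4 Tnfr2ko mice at 494, 282, 262 and 274 TPM. After water, the 4 control mice stood at 105, 161, 123 and 149 TPM and the 5 Tnfr2ko mice at 134, 104, 177, 197 and 115 TPM. The male water-treated mice of cage a stood at 104 to 134 TPM and the female ones of cage b at 115 to 197 TPM. All DSS-treated mice were female, and the part of sex in the ratio was not tested. Of the 7 DSS-treated mice, 6 were above every water-treated mouse, and the remaining mouse, control 3, lay among them. The ratio of medians was 1.65 after rescaling and 2.20 relative to the total TPM listed for a mouse. Among Tnfr2ko mice alone, Ly6a was higher after DSS without overlap both as deposited, where 30.7% of genes were so, and after rescaling (222 to 415 against 114 to 218 TPM), where 17.1% were. Among control mice the ranges met, at 158 TPM in the lowest DSS-treated and 161 TPM in the highest water-treated mouse.

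The Ly6a difference between treatments lay mainly in a single listed transcript, Ly6a-204. The 5 transcripts encode the same 402-base reading frame and differ in where they start and end. Ly6a-204 is 955 bases long and starts farthest upstream, at base 74998031 of chromosome 15, and 44 of its 925 windows occurred in no other transcript. Ly6a-205 had 1 such window of 848, and Ly6a-201, Ly6a-202 and Ly6a-203 had 0, so the division among these 4 rests almost wholly on the authors' estimate. Ly6a-201 has 3 exons and the others have 4.

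Ly6a-204 itself stood at 269, 100 and 72.7 TPM in the control mice and at 309, 131, 161 and 176 TPM in the Tnfr2ko mice after DSS. After water it stood at 43.2, 27.0, 44.2 and 43.1 TPM in the control mice and at 31.5, 32.5, 18.5, 62.5 and 24.1 TPM in the Tnfr2ko mice. All 7 DSS-treated mice were above all 9 water-treated mice as deposited, with 15.2% of transcripts higher in that way. After rescaling, 6 of 7 were above every water-treated mouse (58.7 to 260 against 19.7 to 69.1 TPM), and 3.91% of transcripts were higher without overlap. The ratio of medians was 4.96 as deposited and 3.84 rescaled, and in control mice alone it was 2.33 as deposited. Without Ly6a-204, the rest of the gene ranged over 85.3 to 212 TPM (median 112) after DSS and over 62.1 to 159 TPM (median 102) after water, and those ranges overlapped.

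As a share of the Ly6a TPM, which does not depend on the scaling of a table, Ly6a-204 made up 70.6%, 32.1% and 46.0% in control and 62.7%, 46.4%, 61.5% and 64.1% in Tnfr2ko mice after DSS. After water its share was 41.1%, 16.8%, 35.9% and 28.9% in control and 23.5%, 31.1%, 10.5%, 31.7% and 20.9% in Tnfr2ko mice. Of 7 DSS-treated mice, 6 had a larger share than every water-treated mouse, and DSS-treated control 2 lay among the water-treated mice. The median share was 61.5% against 28.9%, which is 32.6 points higher. In control mice alone the ratio of median shares was 1.42, against 2.13 over all mice. Of 2900 transcript shares in 1423 genes, 4.52% had a median at least that much higher after DSS and 4.28% at least that much lower, and 0.483% were higher without overlap. Of 1168 transcripts that start farthest upstream in their gene, 5.05% gained at least as many points and 3.17% lost as many.

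The other listed Ly6a transcripts took the remainder. Ly6a-205 carried 25.2% to 55.5% (median 35.8%) after DSS and 30.4% to 59.9% (median 52.6%) after water. Ly6a-202 was at 0 when rounded to 2 decimals in all 7 DSS-treated mice and in 6 of 9 water-treated mice, and carried 44.7% in water-treated control 2, 8.33% in control 4 and 17.9% in Tnfr2ko 2. Ly6a-201 was likewise at 0 in all 7 DSS-treated mice and reached 19.3% in water-treated control 4. Both transcripts lack a window of their own, so these values are the estimate's division of reads that other transcripts share.

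**Figure D2:**
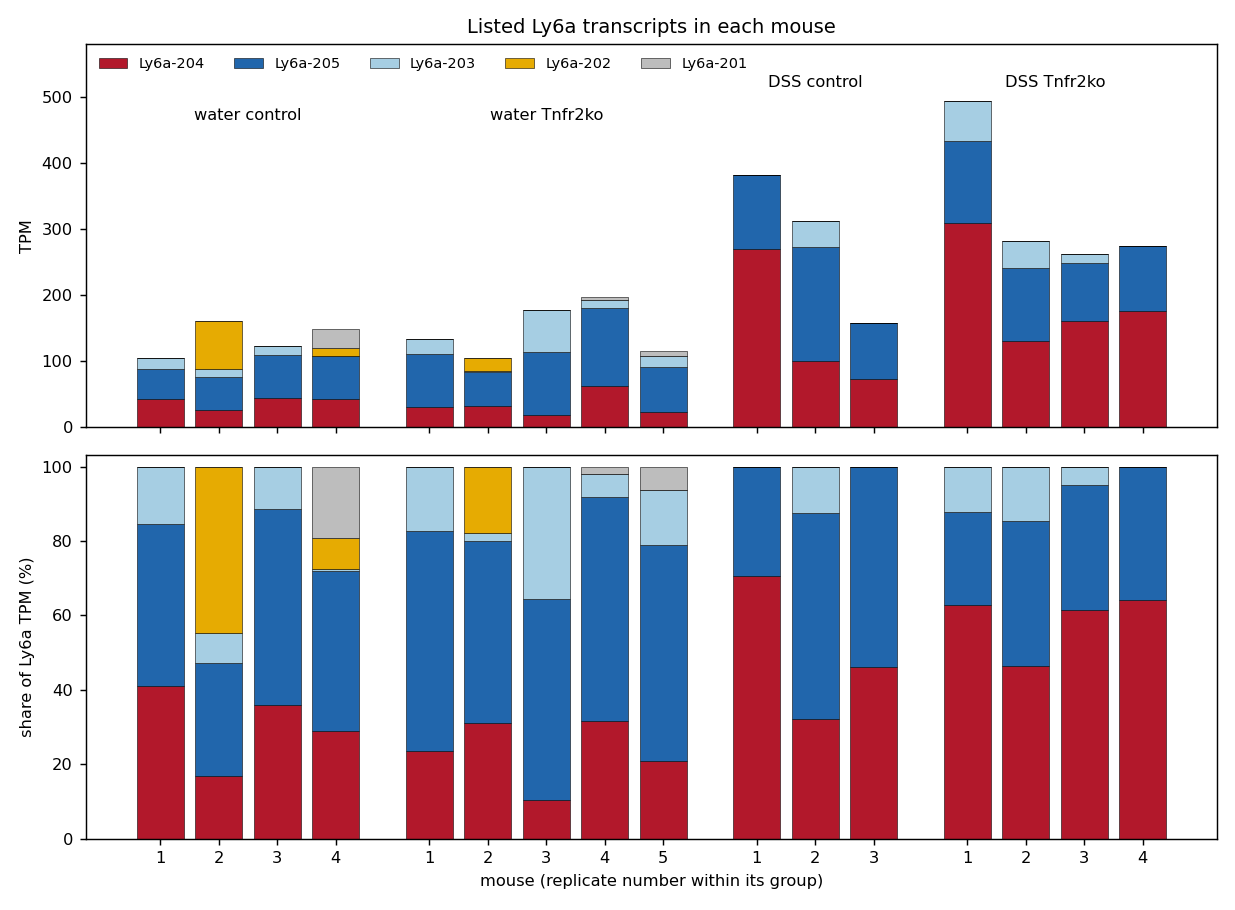
Listed Ly6a transcripts in each of the 16 mice (horizontal axis, replicate number within the group), stacked as TPM in the upper panel and as percent of the Ly6a TPM in the lower panel. The Ly6a-204 part spans 72.7 to 309 TPM in the DSS-treated and 18.5 to 62.5 TPM in the water-treated mice, while its share spans 32.1% to 70.6% and 10.5% to 41.1%.

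Ly6c2, a Ly-6C gene of monocytes and plasma cells, had the second highest median of the 6 genes after water and the lowest after DSS, although it stood above Ly6d in DSS-treated Tnfr2ko 2 and 3. The water-treated mice stood at 218, 72.8, 9.60 and 598 TPM in the control group and at 137, 510, 183, 571 and 198 TPM in the Tnfr2ko group. The DSS-treated mice stood at 2.31, 1.93 and 0.866 TPM in the control group and at 0.340, 8.73, 59.7 and 2.84 TPM in the Tnfr2ko group. Both treatments met only through DSS-treated Tnfr2ko 3 and water-treated control 3, and the water median was 85.6 times the DSS median (198 against 2.31 TPM), or 108 times after rescaling. Within either genotype the DSS-treated mice were lower without overlap, as were 8.36% of genes in control and 10.1% in Tnfr2ko mice as deposited. The gene also varied widely inside each treatment. Its highest mouse was 175 times its lowest after DSS and 62.3 times after water, and its spread within genotypes exceeded that of 98.5% of 6220 genes in the water table. Beside it, Jchain, the joining chain of secreted immunoglobulins, stood at 5.18 to 441 TPM after DSS and 465 to 13800 TPM after water. Jchain and Tnfrsf17 were the 2 of 6 plasma cell markers at 1 TPM or more that were lower without overlap as deposited, where 4.18% of all genes were. The 11 monocyte and macrophage markers summed to 19.9 to 64.3 TPM after DSS and 1167 to 2578 TPM after water. The part of either cell type in the Ly6c2 level was not tested.

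Ly6c1, nearly identical to Ly6c2 in its coding sequence, did not show that pattern. After DSS it stood at 41.1, 38.2 and 17.3 TPM in control and 58.9, 32.8, 28.1 and 20.1 TPM in Tnfr2ko mice. After water it stood at 26.4, 50.9, 42.5 and 9.78 TPM in control and 26.9, 17.6, 35.1, 32.9 and 21.9 TPM in Tnfr2ko mice. The treatments overlapped throughout, and the ratio of medians was 1.22 as deposited and 0.954 after rescaling, so its direction depended on the scale. Summed, both Ly6c genes came to 18.2 to 87.8 TPM after DSS and 52.1 to 608 TPM after water. Ly6c2 made up 0.574% to 68.0% of that sum after DSS and 18.4% to 98.4% after water, the 18.4% in control 3, the water-treated mouse with the lowest plasma cell sum. Endothelial markers, for cells in which Ly6c1 is known, summed to 10.8 to 30.5 TPM over all mice. The 3 listed Ly6c1 transcripts took unsteady shares, such as 0.00140% to 100% for Ly6c1-201 among water-treated control mice.

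Ly6d and Ly6e were both lower at the median after DSS. Ly6d stood at 7.28, 4.31 and 1.94 TPM in control and 6.22, 5.01, 9.48 and 8.76 TPM in Tnfr2ko mice after DSS. After water it stood at 54.4, 27.2, 5.01 and 71.4 TPM in control and 29.6, 72.5, 84.5, 86.4 and 54.9 TPM in Tnfr2ko mice. Of the 9 water-treated mice, 8 were above every DSS-treated mouse, and the exception was again control 3. The water median was 8.83 times the DSS median (54.9 against 6.22 TPM), or 11.5 times after rescaling. Squamous epithelial markers, for a tissue in which Ly6d is known, were low, with sums of 4.43 to 22.9 TPM after DSS and 1.37 to 5.60 TPM after water. The 7 B cell markers, for the other lineage in which it is known, summed to 1.15 to 4.14 TPM after DSS and 10.1 to 126 TPM after water. Of the 5 at 1 TPM or more, 2 were lower without overlap on both scales, beside 4.18% of all genes as deposited and 6.94% after rescaling. The part of either cell type in the Ly6d level was not tested.

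Ly6e, the interferon-inducible member, was the less different of both genes between treatments. After DSS it stood at 294, 324 and 475 TPM in control and 385, 272, 271 and 320 TPM in Tnfr2ko mice. After water it stood at 407, 377, 278 and 503 TPM in control and 352, 525, 479, 617 and 489 TPM in Tnfr2ko mice. The ranges overlapped, and the DSS median was 0.667 of the water median as deposited and 0.534 after rescaling. Its highest mouse was 1.76 times its lowest after DSS, the smallest such ratio of the 6 genes there, and 2.22 times after water, where that of Ly6a was 1.88. Of its 8 listed transcripts, Ly6e-215 carried 91.6% to 98.9% of the TPM in every mouse.

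Ly6g, the neutrophil antigen, overlapped between the treatments. It stood at 65.8, 37.8 and 45.1 TPM in control and 65.4, 45.7, 30.5 and 38.1 TPM in Tnfr2ko mice after DSS. After water it stood at 34.2, 36.2, 51.5 and 45.1 TPM in control and 66.2, 48.6, 48.3, 74.5 and 25.0 TPM in Tnfr2ko mice. The ratio of medians was 0.934 as deposited and 0.708 after rescaling. Beside it, S100a8 and S100a9 were higher in every DSS-treated than in every water-treated mouse on both scales. The other 5 neutrophil markers at 1 TPM or more overlapped, with lower medians after DSS for Csf3r and Mmp9 and higher ones for Cxcr2, Retnlg and Ltf. After water, all 11 neutrophil markers together summed to 12.8 to 41.9 TPM, beside 25.0 to 74.5 TPM for Ly6g alone. Which cells the Ly6g reads came from was not tested.

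Across the 4 groups, no pair of neighbours in the order of mean level was separated without overlap for any of the 6 genes. For Ly6a the order ran from DSS-treated Tnfr2ko (328 ± 111 TPM, SD, n = 4) through DSS-treated control (284 ± 114, n = 3) and water-treated Tnfr2ko (146 ± 40.0, n = 5) to water-treated control mice (135 ± 25.0, n = 4). For Ly6c2 it ran from water-treated Tnfr2ko (320 ± 204 TPM, n = 5) through water-treated control (225 ± 264, n = 4) and DSS-treated Tnfr2ko (17.9 ± 28.1, n = 4) to DSS-treated control mice (1.70 ± 0.750, n = 3).

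The comparison of genotypes asked whether loss of epithelial TNFR2 moves these genes in the injured or the uninjured colon. It was made within each table with limma on log2(TPM + 1), which understates changes of low genes, and p-values were adjusted by the Benjamini-Hochberg method over all genes tested. None of the 6 genes passed an adjusted p of 0.05 in either table, nor an unadjusted p of 0.05. Of all genes, 0.00918% passed the adjusted threshold after DSS (1 of 10899) and 0.00905% after water (1 of 11046), and 2.65% and 5.28% had an unadjusted p under 0.05. No member separated the genotypes without overlap, where 3.68% of genes did after DSS and 1.55% after water.

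Ly6a differed by 0.25 on the log2 scale between Tnfr2ko and control mice after DSS (SE 0.34, 95% interval -0.55 to 1.04, limma adjusted p = 1.00) and by 0.09 after water (SE 0.21, interval -0.39 to 0.57, adjusted p = 0.953). In TPM the Tnfr2ko mean was 44.0 higher after DSS (exact permutation p = 0.657) and 10.9 higher after water (exact p = 0.627). The sign after DSS rested on cage c, where the Tnfr2ko mouse stood at 494 and the control at 158 TPM. In cage d the difference was -74.2 TPM (3 Tnfr2ko and 2 control mice), and it was -19.0 TPM without control 3 and -11.2 TPM without Tnfr2ko 1. After water it turned to -1.89 TPM without Tnfr2ko 4.

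Ly6c2 and Ly6d had the largest differences of the 6 genes in both tables, and none was beyond the spread between mice. Ly6d was higher in Tnfr2ko mice by 0.69 after DSS (SE 0.37, interval -0.16 to 1.54, limma adjusted p = 1.00) and by 1.12 after water (SE 0.68, interval -0.41 to 2.65, limma adjusted p = 0.865). Its exact permutation p was 0.171 after DSS and 0.151 after water. Ly6c2 differed by 1.5 after DSS (SE 1.14, interval -1.15 to 4.14) and by 1.43 after water (SE 1.04, interval -0.91 to 3.78), with exact p-values of 0.571 and 0.540 in these permutation tests. Its difference in mean TPM after DSS, 16.2, was 2.27 without Tnfr2ko 3. The plasma cell genes Jchain, Mzb1 and Pou2af1 differed in the same direction after DSS, by 2.08, 0.58 and 0.95 on the log2 scale with a limma adjusted p of 1.00 each, and their part in the Ly6c2 and Ly6d values was not tested.

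The 3 remaining genes had intervals that lay on both sides of 0. The log2 difference was 0.10 after DSS and -0.08 after water for Ly6c1, -0.21 and 0.34 for Ly6e, and -0.16 and 0.25 for Ly6g. The median over the 6 genes was 0.17 after DSS and 0.30 after water, beside 0.0155 and 0.00149 over all genes tested. Over 23 settings, the main one included, the smallest limma adjusted p of a member was 0.728.

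**Figure D3:**
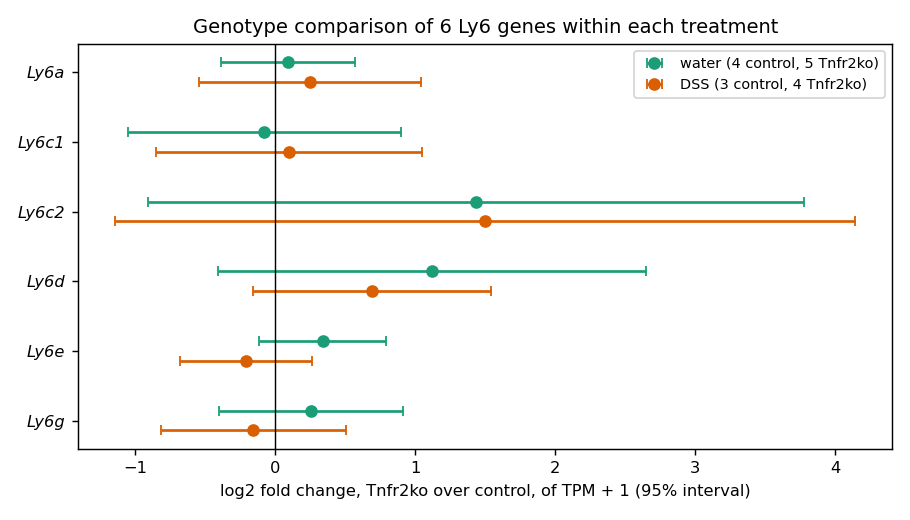
Log2 fold change of TPM + 1 between mice labelled Tnfr2ko and control mice (horizontal axis) for the 6 genes (vertical axis) within each treatment, with points for the limma estimate and bars for its 95% interval. All 12 intervals include 0, and those of Ly6c2 are the widest, from -1.15 to 4.14 after DSS.

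By transcript, 14 of the 21 listed member transcripts reached the 1 TPM filter after DSS and 17 after water, and none passed an adjusted limma p of 0.05 (0.0159% and 0.0158% of all transcripts tested did). After water, 2 of the 17 had an unadjusted p under 0.05, Ly6c1-201 and Ly6e-208, and after DSS 0 of the 14 did, beside 4.98% and 3.27% of all transcripts. The share of Ly6a-204 was 49.6% in control and 58.7% in Tnfr2ko mice after DSS (exact permutation p = 0.400) and 30.7% and 23.6% after water (exact p = 0.286). After DSS the difference of 9.1 points was 19.6 points without control 1 and 0.384 points without control 2, and after water that of -7.1 points was -3.64 without control 1, -11.7 without control 2 and -3.83 without Tnfr2ko 3. The share of Ly6a-205 was 42.4% in control and 56.0% in Tnfr2ko mice after water, 13.6 points higher, with an exact two-sided permutation p of 0.0238, and was 13.0 points lower after DSS, at 33.3% against 46.3% (exact p = 0.229). This was the one p under 0.05 among the 10 comparisons of Ly6a shares by genotype. The groups overlapped, where 1.1% of the 2900 shares did not. An exact p under 0.05 was reached by 3.76% of them after water and 2.17% after DSS, and the p adjusted over those shares was 1.00. It rose to 0.0536 without control 2 and to 0.0571 without Tnfr2ko 1, 3, 4 or 5. The TPM of Ly6a-205 after water differed by 0.51 on the log2 scale (limma adjusted p = 0.898).

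Within the water-treated mice, 3 members varied with the plasma cell sum, which was mostly Jchain. Jchain stood at 465 to 13800 TPM (median 5290) in these mice, beside sums of 570 to 14421 TPM, and Sdc1 at 90.9 to 137 TPM. Correlations with the sum therefore rest mainly on Jchain, and do not show that the other plasma cell genes varied alike. Over the 9 mice, the log2 level of Ly6c2 correlated with the log2 sum of 7 plasma cell genes at r = 0.983 (permutation p = 7.72e-05, adjusted over 72 such relations 0.00556) and rho = 0.917 (p = 0.00131, adjusted 0.0472, permutation), and r was 0.915 without the 2 mice farthest from the median sum. For Ly6e, r was 0.915 (adjusted permutation p = 0.00913), rho was 0.900 (adjusted 0.0487) and r without these 2 mice 0.814. For Ly6d, r was 0.947 (adjusted permutation p = 0.00913), while rho, 0.833, had an adjusted p of 0.0744 and r without these 2 mice was 0.729. Mice with a low plasma cell sum thus had low values of these genes, and control 3 was the lowest in each. Ly6c2 also correlated with T cell (r = 0.886), B cell (r = 0.926) and neutrophil markers (r = 0.834, adjusted permutation p = 0.0421), and Ly6e with neutrophil markers (r = 0.859, adjusted permutation p = 0.0335). Ly6d correlated with B cell markers (r = 0.877, adjusted permutation p = 0.0309), with an adjusted p of 0.166 for rho. The plasma cell, T cell, B cell and neutrophil lists thus cannot be told apart in 9 mice. With monocyte and macrophage markers Ly6c2 had r of -0.0686 (adjusted permutation p = 0.914), and with endothelial markers -0.425 (adjusted 0.547).

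After DSS, over 7 mice, the correlation of Ly6c2 with the plasma cell sum was r = 0.919 and rho = 0.857, with adjusted permutation p-values of 0.0917 and 0.143. Ly6e gave r = -0.546 and rho = -0.857 (adjusted permutation p = 0.433 and 0.143) and Ly6d r = 0.592 (adjusted 0.404) there, and a difference between treatments was not tested. That plasma cell sum held Sdc1 at a median of 90.6 TPM and Jchain at 48.9 TPM. With T cell markers, which summed to only 0.318 to 3.73 TPM after DSS, Ly6d had r = 0.906 (adjusted permutation p = 0.0460). Its rho there was 0.893 (adjusted 0.0984), and r was 0.638 without the 2 mice farthest from the median sum. Ly6a, Ly6c1 and Ly6g had r of 0.0809, -0.606 and 0.0854 with the plasma cell sum in water-treated mice, with adjusted permutation p-values of at least 0.274. Neutrophil markers and Ly6g had r of 0.436 after DSS and 0.233 after water, with adjusted permutation p-values of 0.633 and 0.836. All mice of a treatment come from one table, and the cages, of at most 5 mice, are too small for values of their own.

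**Figure D4:**
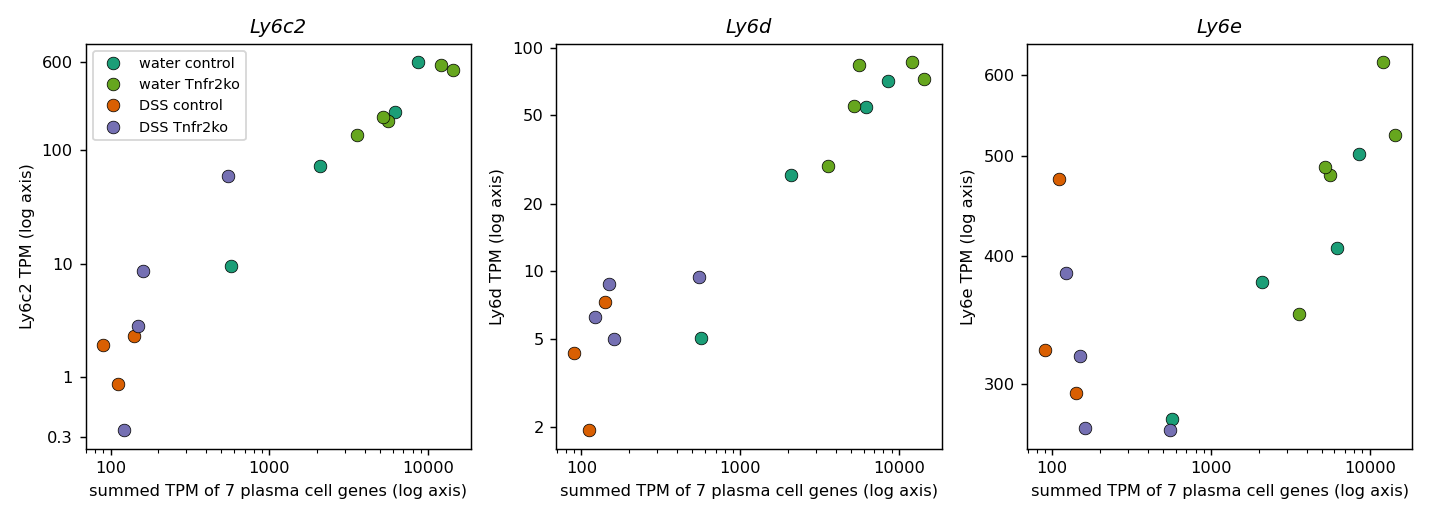
TPM of Ly6c2, Ly6d and Ly6e in each mouse (vertical log axes) against the summed TPM of 7 plasma cell genes in the same mouse (horizontal log axis), colored by group. Water-treated mice span 570 to 14421 TPM along the horizontal axis, and the mouse at 570 TPM is the lowest water-treated mouse for each of the 3 genes.

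Other members of the Ly6 and uPAR families were taken from a list of 39 symbols, of which 34 were in the tables and 13 reached a mean of 1 TPM in either table. None passed an adjusted limma p of 0.05 by genotype, of 11 tested after DSS and 12 after water. An unadjusted p under 0.05 was reached by 1 of 11 after DSS and 1 of 12 after water, beside 2.65% and 5.28% of all genes. These were Spaca4 after DSS, with a difference of -0.98 on the log2 scale (limma adjusted p = 1.00, 15.9 TPM in control against 7.33 TPM in Tnfr2ko mice), and Cd177 after water, with 0.82 (limma adjusted p = 0.865, 55.2 against 97.5 TPM). Cd177, a surface protein best known from neutrophils, was also the one gene of these 13 to separate the treatments as deposited, where 22.5% of all genes did. It stood at 143 to 493 TPM (median 273) after DSS and 33.7 to 133 TPM (median 78.4) after water. After rescaling its ranges met (124 to 398 against 36.9 to 142 TPM), and 11.4% of all genes separated the treatments. Lypd8, a secreted and GPI-anchored colonic protein known to keep flagellated bacteria off the epithelium, was far above the 6 members in level, at 2190 to 3646 TPM after DSS and 2772 to 4661 TPM after water, and overlapped. Plaur, the urokinase receptor, stood at 28.8 to 58.5 and 26.2 to 56.4 TPM. Ly6k reached 20.8 TPM after water and 2.24 TPM after DSS. Ly6g6c, Ly6g6d, Ly6g6e, Ly6g6f, Ly6i, Lypd6b, Lynx1 and Psca stayed at or under 21.1 TPM in every mouse.

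Gene lists relevant to the roles of Ly6a and Ly6e were read alongside. Of 17 regeneration-associated genes at 1 TPM or more, Anxa1 alone was higher after DSS without overlap as deposited (167 to 390 against 87.9 to 151 TPM, overlapping after rescaling), and Ccn2 and Tubb6 were lower on both scales. Background for these counts was 18.3% of genes higher and 4.18% lower as deposited, and 4.45% and 6.94% after rescaling. Of 27 interferon-responsive genes, 0 were higher and 4 lower without overlap as deposited (Bst2, Psmb8, Psmb9 and Ciita). None of either list passed an adjusted limma p of 0.05 by genotype. An unadjusted limma p under 0.05 was reached after DSS by 0 of 17 regeneration and 4 of 26 interferon genes, and after water by 0 of 16 and 0 of 25, beside 2.65% and 5.28% of all genes. Among these 4, Isg15 differed by -1.04 on the log2 scale after DSS (limma adjusted p = 1.00).

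Genes whose deviations from the group means were most like those of a member, by the smaller of its correlations over the 9 water-treated and the 7 DSS-treated mice among 6220 genes, are given as a description. For Ly6a they were S100a11 (r = 0.855 after water and 0.894 after DSS), Ciz1 (0.844 and 0.845) and Mex3c (0.935 and 0.783). For Ly6c1 they were Nostrin (0.913 and 0.875), Acot9 (0.863 and 0.923) and Areg (0.854 and 0.863). For Ly6d they were Glipr1, Cd52 and Suz12, for Ly6e H13, Rilpl2 and Edem2, and for Ly6g Pkm, Rabgef1 and Lypd8, with a smaller r of 0.751 to 0.923. Ly6c2, below 5 TPM in some mice after DSS, was most like Odc1 (0.957 and 0.921), Jchain (0.985 and 0.846) and Trp53inp1 (0.899 and 0.841). Between members, Ly6a and Ly6c1 had r of 0.310 after water and 0.928 after DSS, and Ly6c2 and Ly6d 0.932 and 0.343.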

How the data were processed

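Per the submitters' processing notes, the authors estimated transcript abundances with kallisto and sleuth on mm10, from stranded polyA-enriched libraries read singly over 75 bases, and deposited TPM of principal (APPRIS) transcripts in 2 tables, one for each treatment, normalized separately. TPM keep no depth, so counting error is unknown. Repeated lines (385 of 29373 in each table) were dropped and TPM summed by symbol. Coordinates and sequences came from GENCODE M21 (GRCm38); 27827 of 28988 listed transcripts, and all 21 members, matched by version. Genotype was tested within a table by limma 3.58.1 (R 4.3.3) with a variance trend on log2(TPM + 1), for genes or transcripts with a mean of at least 1 TPM, without a block, and tested on simulated data. Single values used exact two-sided permutation of mice, whose smallest p is 0.0286 for 3 against 4 and 0.00794 for 4 against 5 (Python 3.11.15, numpy 2.4.6, pandas 2.3.3). No test crossed the tables. Alternatives were another pseudocount (0.1), no filter or 5 TPM, rescaling, cage, replicate block and leaving out each mouse. The members and gene lists were chosen with earlier results of these data known. Named genes were the 6 members, other Ly6/uPAR genes at 1 TPM or more, marker genes set beside a member, Tnfrsf1b, and the 3 genes most like each member. Examples named from the regeneration and interferon lists, and among likeness between members, were chosen after their values were seen.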

Additional observations from a re-analysis of the deposited data

Results flagged for a closer look

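Of 31 groups of 4 or 5 mice examined for a mouse far from the others by Dixon's criterion, 5 had one. Chance gives about 1 in 20 for independent, normally distributed values. Transcript shares of a gene depend on each other, and some sat at or near 0 in most mice, so that rate need not hold here. Ly6a stood at 494 TPM in DSS-treated Tnfr2ko 1, against 262 to 282 TPM in the other 3 mice of that group. Ly6c2 stood at 59.7 TPM in DSS-treated Tnfr2ko 3, against 0.340 to 8.73 TPM in the others. Ly6a-204 made up 46.4% of the Ly6a TPM in DSS-treated Tnfr2ko 2, against 61.5% to 64.1% in the others. Ly6a-201 made up 19.3% in water-treated control 4, against 0 to 0.0742% in the others, and Ly6a-202 made up 17.9% in water-treated Tnfr2ko 2, against 0 to 9.87e-05% in the others. The last 2 transcripts share every 31-base window with another annotated transcript.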

How the results depend on the processing

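Of 426 recomputed values of 32 results, 369 were classed as the same as the main result, 16 as reversed, 36 as moved and 5 as weaker. Ratios between treatments were not tested and had no threshold, and counts of called genes have no direction. The class therefore does not show that each value kept its direction. The Ly6c1 ratio between treatments, for one, changed direction after rescaling. The count of genes called by genotype, 1 after DSS and 1 after water, was 0 and 0 with a pseudocount of 0.1 TPM, 0 and 4 with no filter on low TPM, and 0 after water with a minimum of 5 TPM. Called transcripts, 2 in each table, were 0 after DSS with either the 0.1 TPM pseudocount or no filter. Leaving out each mouse gave 0 to 3 genes and 0 to 9 transcripts after DSS, and 1 to 2 genes and 1 to 7 transcripts after water. No member gene or transcript was called under any of these settings. A fit with a replicate block called 0 genes and 0 transcripts in either table. The numbers did not pair the mice, since same-numbered mice correlated at -0.197 to -0.0253 after DSS and -0.0769 to 0.0932 after water.

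Differences in mean TPM between genotypes turned sign within cage d for Ly6a (-74.2) and Ly6c1 (-12.6), within cage c for Ly6c2 (-0.526) and Ly6g (20.3), and within cage b for Ly6c2 (-18.1). Leaving out each mouse, they ranged from -19.0 to 92.8 (Ly6a), -5.20 to 7.75 (Ly6c1), -87.7 to 2.79 (Ly6e) and -11.5 to 3.47 (Ly6g) after DSS, and from -1.89 to 21.2 (Ly6a) and -13.1 to 0.626 (Ly6c1) after water. The share difference of Ly6a-204 ranged from 0.384 to 19.6 points after DSS and -11.7 to -3.64 after water. Other shares by genotype after water ranged from -4.79 to 1.64 points for Ly6a-201, -14.1 to 0.810 for Ly6a-202 and 9.61 to 17.0 for Ly6a-205. In control mice alone, the ratio of DSS to water medians was 2.33 for the Ly6a-204 TPM and 1.42 for its share. The cause of these changes was not tested. TPM without counts, 3 to 5 mice a group and near-identical Ly6c genes limit what could be detected.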
